A study of Oreochromis niloticus with 8 samples.

Results

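The mitochondrial carrier and protein import genes of the Nile tilapia midbrain were followed in fish kept at normothermy and in cold-exposed fish. The members were rows whose gene name began with slc25a, timm, tomm, mpc1, mpc2, vdac, ucp, samm50, pam16, mfn, opa1, letm, mcu or micu, together with the slc25a5 gene, which was listed under its identifier LOC100700733. Of 29533 genes listed, 57 had such a name, and 56 of these reached a mean of 1 TPM (transcript abundance scaled to gene length and to a common library total) in at least 1 group. Those 56 were tested among 18863 genes that passed the same level. The remaining one, slc25a4, lay between 0.223 and 0.855 TPM in the 8 libraries and was not tested. Apart from this minimum level the rule used gene names only, but it was set with earlier results of these data known.

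Nile tilapia (Oreochromis niloticus) is a warm-water cichlid fish. Polyadenylated RNA of the midbrain was sequenced in 4 control libraries, from fish held at normothermy, and in 4 cold libraries, from fish exposed to cold. No transgene, drug or mutant line is named for either group. The temperatures, the length of exposure, the age, the sex and the strain of the fish, and whether each library came from 1 fish, are not stated in the labels.

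Most mitochondrial proteins are encoded in the nucleus, made in the cytosol and brought in through the translocase of the outer membrane (TOM), a receptor and pore complex. Proteins with a cleavable presequence then pass the inner membrane through the TIM23 translocase, whereas carrier proteins are escorted by small TIM chaperones and inserted by the TIM22 translocase. The SLC25 carriers themselves move nucleotides, phosphate, organic acids, amino acids, cofactors and metals across the inner membrane, and VDAC channels let small metabolites cross the outer one. In neurons these systems supply ATP and buffer calcium at synapses.

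Genes of this set changed in both directions in the cold group. Among those called, the changes reached from timm8a, an import chaperone gene whose mean TPM was 49.1% lower, to slc25a34, a carrier gene whose mean was 65.0% higher. By limma on log2(TPM + 1), with Benjamini-Hochberg adjustment over all 18863 genes and a call at an adjusted p under 0.05, 23 of the 56 members changed. That was 41.1% of the members, beside 36.7% of all genes tested. In the cold group 8 members rose, 14.3% of them beside 13.0% of all genes, and 15 fell, 26.8% beside 23.6%. The members' shares were thus close to those of all genes. The median log2 change of the members was -0.08, beside -0.09 for all genes tested.

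Groups did not overlap for 10 members with cold higher (17.9%, beside 13.4% of all genes) and for 16 with cold lower (28.6%, beside 23.4%). Because TPM is a share of a fixed total, the values were also rescaled by the median of ratios between libraries. By design this brought the median of all genes close to 0 (-0.00), and it moved that of the members to 0.02. After this scaling 13 members were called higher (23.2%, beside 18.5% of all genes) and 8 lower (14.3%, beside 16.8%). The 8 genes called higher and 8 of the genes called lower were called in the same direction on both scales. The other 7 lower calls, slc25a5, letmd1, mcu, mfn1, slc25a16, timm10 and tomm7, were lost after scaling.

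**Figure D1:**
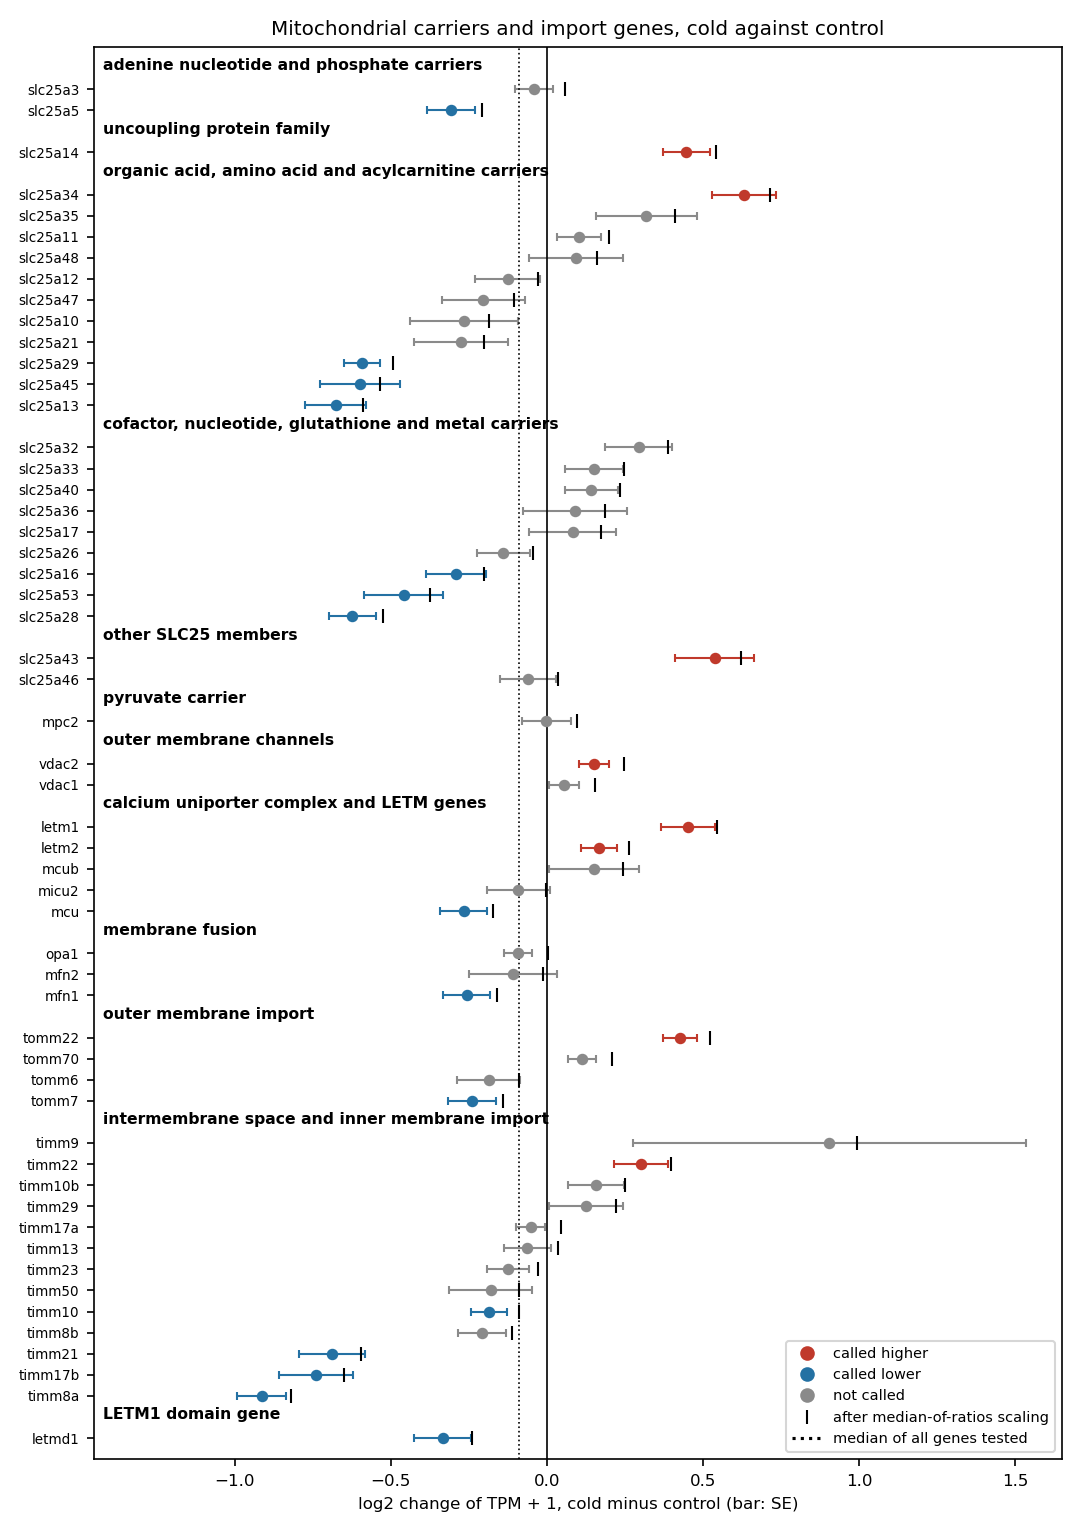
Log2 change of TPM + 1, cold minus control, of 54 of the 56 members (horizontal axis, bars are standard errors), ordered by role, with black ticks for the value after median-of-ratios scaling and a dotted line at the median of all genes tested. Genes called higher (8, red) and lower (15, blue) occur together in 4 of the 12 roles, those of organic and amino acid carriers, calcium and LETM genes, outer membrane import and inner import.

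The libraries were alike in overall profile, with correlations of log2(TPM + 1) over genes of 0.968 to 0.982 within groups and 0.943 to 0.963 between groups. Between 18165 and 18506 genes reached 1 TPM in a control library and between 17842 and 18055 in a cold one (exact permutation test, two-sided, p = 0.0286, the smallest that 4 against 4 can give). Markers of midbrain and tectum, such as th (8.02 to 15.9 TPM) and en1b (12.7 to 37.6 TPM), were above 0 in every library. So were the hypothalamic hormone genes oxt (267 to 4607 TPM) and avp (257 to 1492 TPM), which varied widely within both groups. The summed TPM of 12 midbrain and tectum markers was 117 to 160.1 in control and 89.4 to 106 in cold libraries, that of 10 vessel and meningeal markers 167 to 209 and 117 to 164, and neither pair of ranges overlapped (exact permutation p = 0.0286 for each). These p-values were not adjusted over the 10 marker lists. Of the midbrain and vessel lists 5 genes (41.7%) and 3 genes (30.0%) were called lower, beside 23.6% of all genes. After scaling 3 of each were called lower (25% and 30%, beside 16.8% of all genes). The log2 change was positive in 3 midbrain and 2 vessel genes, with 0 called higher on either scale. The sums for neurons (7688 to 8220 in control, 7244 to 8244 in cold), astroglia, oligodendrocytes, microglia, red blood cells, hypothalamus, pituitary and muscle overlapped between groups. Single markers in some of these lists were called lower, with 3 of 7 microglial genes (42.9%, beside 23.6% of all genes). So were 2 each of 11 neuronal (18.2%), 8 astroglial (25%) and 9 oligodendrocyte genes (22.2%), shares close to that of all genes. Among them p2ry12, a microglial receptor gene, went from 25.2 ± 4.67 to 2.25 ± 0.589 TPM, the astroglial glutamine synthetase copy glula from 798 to 404.5 TPM, and the oligodendrocyte factor gene sox10 from 22.2 to 12.6 TPM. Other genes of these lists went the other way, with a positive log2 change in 4 microglial, 5 oligodendrocyte, 2 neuronal and 2 astroglial genes. No such gene was called on the TPM scale. After scaling 1 oligodendrocyte and 1 neuronal gene were called higher (11.1% and 9.09%, beside 18.5% of all genes). In the pituitary list 1 of 6 genes was called lower (16.7%, beside 23.6% of all genes) and in the muscle list 1 of 4 higher (25%, beside 13.0%). No marker was at 0 in all libraries. The part of any of these markers in the changes described here was not tested. In such bulk tissue, fewer cells of a type and less RNA per cell cannot be told apart.

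By level, the set spanned from 1.95 TPM (slc25a45, mean of all libraries) to 509 TPM (slc25a3), and 10 members had a control mean of at least 100 TPM. Summed over the members, the level was 3645 ± 118 TPM in control (mean ± SD, n = 4) and 3464 ± 72.1 TPM in cold libraries, a difference that did not pass the exact permutation test (p = 0.0857). The summed SLC25 carriers were at 1458 ± 60.6 and 1342 ± 60.3 TPM (exact permutation p = 0.0571), and the summed TIM and TOM genes at 1213 ± 44.6 and 1140.2 ± 50.7 TPM (p = 0.114). Most members varied little within a group, with a median coefficient of variation of 8.99% in control and 8.61% in cold libraries. The exception was timm9, a small TIM chaperone gene, at 24.7, 1.62, 6.31 and 10.3 TPM in control 1 to 4 and at 17.0, 16.9, 7.30 and 24.6 TPM in cold 1 to 4. Its coefficients of variation of 92.9% and 43.1% were the highest of the set, and its log2 change of 0.90 ± 0.63 (SE) was not called (limma adjusted p = 0.294). At the other end, the inner membrane fusion gene opa1 varied by 1.30% and 1.85%.

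**Figure D2:**
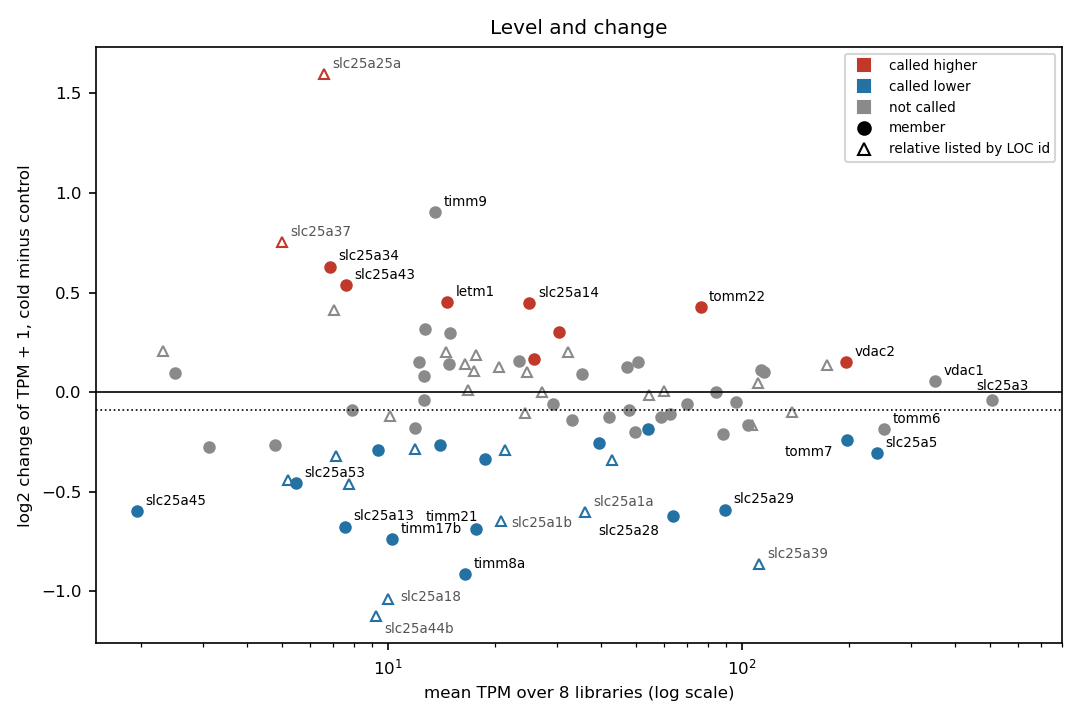
Log2 change of TPM + 1 (cold minus control, vertical axis) against the mean TPM over 8 libraries (log scale) for the 56 members (circles) and for 32 related genes listed only by identifier (triangles), with the median of all genes tested as a dotted line. The 4 members above 200 TPM lie within -0.31 to 0.05, and the widest called changes among the members, -0.91 for timm8a and 0.63 for slc25a34, lie at lower levels.

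Protein import was examined from the outside inwards. Of 4 outer membrane genes, 1 rose (25%, beside 13.0% of all genes) and 1 fell (25%, beside 23.6%). The gene that rose was tomm22, which encodes the central receptor of the TOM complex. Its TPM was 69.96, 63.5, 64.3 and 62.1 in control 1 to 4 and 91.6, 87.1, 83.6 and 88.3 in cold 1 to 4. Every cold library was above every control library, and the mean was 34.9% higher (log2 change 0.43 ± 0.05, limma adjusted p = 0.000512). In the gene table tomm22 overlaps LOC112847713, which was also called higher (7.26 to 9.48 TPM), so their reads may not be fully separable.

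The receptor gene for carrier precursors, tomm70, was at 112, 107, 109 and 106 TPM in control and at 119, 114, 122 and 115 TPM in cold libraries. These groups did not overlap, although the change of 0.11 ± 0.04 was not called on the TPM scale (adjusted p = 0.0778) and was called after scaling (0.21, adjusted p = 0.00625). The genes of 2 small TOM subunits were more abundant than either receptor. One of them, tomm7, fell from 214, 193, 237 and 211 TPM in control to 189, 193, 181 and 161 TPM in cold libraries (-0.24 ± 0.08, adjusted p = 0.0379). Control 2 and cold 2 were both at 193 TPM, and the call was lost after scaling (-0.14, adjusted p = 0.216). It was also lost without cold 1, 3 or 4 or control 1, 3 or 4 (adjusted p 0.0510 to 0.0958). The other, tomm6, was at 249, 296, 279.5 and 246 TPM in control and 261, 253, 235 and 195 TPM in cold libraries, groups that overlapped (-0.19 ± 0.10, adjusted p = 0.182). By the gene table tomm7 overlaps LOC102077017, which was too low to be tested (0.208 and 0.105 TPM).

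Of 13 genes acting in the intermembrane space and the inner membrane, 4 fell (30.8%, beside 23.6% of all genes) and 1 rose (7.69%, beside 13.0%). The lowest p of all members belonged to timm8a, a small chaperone of the intermembrane space whose human counterpart is mutated in deafness-dystonia syndrome. It was at 24.1, 22.3, 20.1 and 21.2 TPM in control and at 10.7, 11.9, 11.8 and 10.3 TPM in cold libraries. No cold library came near a control one (log2 change -0.91 ± 0.08, limma adjusted p = 8.34e-05). Its close relative timm8b, at 94.9 ± 7.79 and 82.0 ± 6.46 TPM, was not called (adjusted p = 0.0605), but was called lower without cold 2 or control 4 (adjusted p 0.0402 to 0.0416). The partner chaperone of timm8a, timm13, was at 71.5 ± 6.29 and 68.3 ± 4.45 TPM and was not called either (adjusted p = 0.558). By the gene table timm8a overlaps zgc:101583, which was not called (9.37 and 9.34 TPM, adjusted p = 0.979).

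Among genes of the TIM23 presequence translocase, timm21, a subunit that links TIM23 with TOM and with respiratory chain assembly, fell by 39.7%. Its levels were 20.8, 21.2, 26.1 and 20.05 TPM in control and 15.0, 12.1, 14.1 and 11.97 TPM in cold libraries (-0.69 ± 0.10, limma adjusted p = 0.00123). The channel subunit gene timm17b fell as well, from 11.7, 14.7, 13.8 and 12.1 TPM to 7.01, 6.06, 8.15 and 8.57 TPM (-0.74 ± 0.12, adjusted p = 0.00153). Neither gene had overlapping groups. In the gene table timm17b overlaps pqbp1, which was not called (79.4 and 74.7 TPM, adjusted p = 0.392).

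The other channel subunit gene, timm17a, was the most abundant gene of the inner import role. It was at 98.2, 102, 97.5 and 93.2 TPM in control and at 95.2, 90.8, 97.1 and 93.3 TPM in cold libraries, ranges that overlapped (-0.05 ± 0.05, adjusted p = 0.420). Neither of the other genes of this translocase was called, timm23 for the pore-forming subunit (61.4 ± 4.14 and 56.2 ± 3.52 TPM, adjusted p = 0.184) or timm50 for the presequence receptor (12.8 and 11.1 TPM, adjusted p = 0.325).

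Within the carrier insertion route, timm22, the insertase gene, rose from 29.2, 26.8, 24.1 and 28.0 TPM to 37.4, 31.4, 35.3 and 30.3 TPM. All cold libraries were above all control ones, by 24.3% on average (0.30 ± 0.09, limma adjusted p = 0.0247). This call was lost without cold 1, cold 3, control 2 or control 3 (adjusted p 0.0551 to 0.0653). The chaperone gene timm10 fell slightly, from 57.6 ± 3.01 to 50.6 ± 2.31 TPM (-0.19 ± 0.06, adjusted p = 0.0327). That call was lost after scaling and without cold 1, 2 or 4 or control 1 or 3 (adjusted p 0.0515 to 0.0841). The TIM22 subunit genes timm10b (22.1 and 24.8 TPM, adjusted p = 0.198) and timm29 (45.1 and 49.5 TPM, adjusted p = 0.440) were not called, and timm10b was called higher after scaling (0.25, adjusted p = 0.0400).

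**Figure D3:**
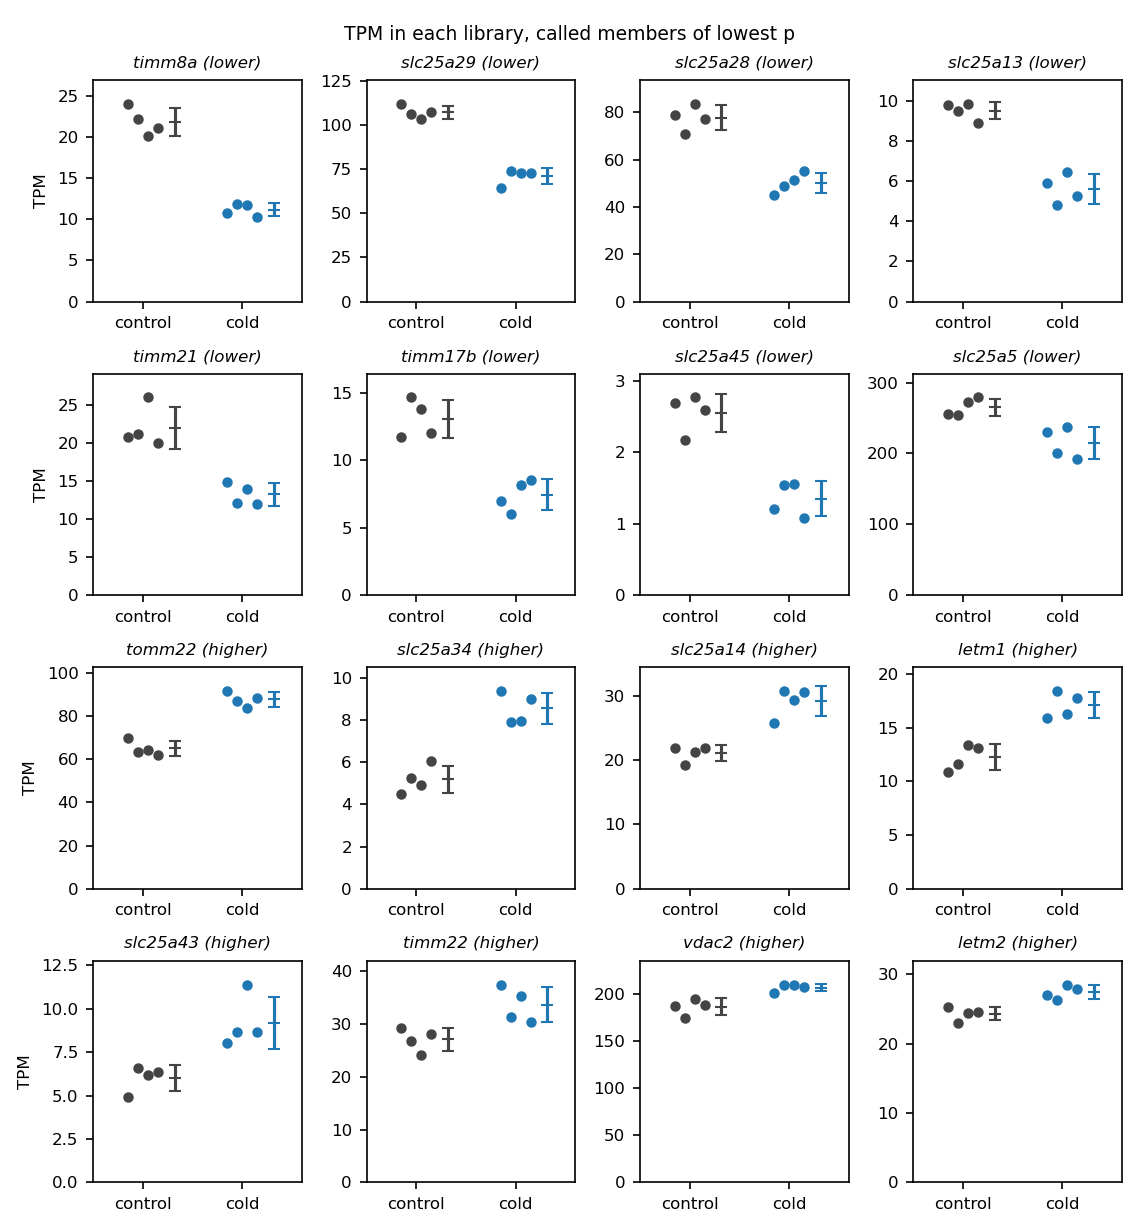
TPM in each control (grey) and cold (blue) library for the 8 members of lowest p called lower (upper 2 rows) and the 8 called higher (lower 2 rows), with mean ± SD (n = 4) beside the points and axes starting at 0. In timm8a the control libraries lie at 20.1 to 24.1 TPM and the cold ones at 10.3 to 11.9 TPM.

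The SLC25 carriers, 26 genes in all, had 3 called higher (11.5%, beside 13.0% of all genes) and 7 lower (26.9%, beside 23.6%). Their median log2 change was -0.05. After scaling 5 were higher (19.2%, beside 18.5% of all genes) and 5 lower (19.2%, beside 16.8%). The most abundant were the genes that supply ATP synthase with its substrates. The phosphate carrier gene slc25a3 was at 529, 481, 554 and 501 TPM in control and at 490.3, 473, 534 and 510.4 TPM in cold libraries. These ranges overlapped and the gene was not called (-0.04 ± 0.06, limma adjusted p = 0.639). The ADP/ATP carrier gene slc25a5 was at 255, 255, 272 and 279 TPM in control and at 231, 201, 237 and 191 TPM in cold libraries. All cold libraries were below all control ones, by 18.9% on average (-0.31 ± 0.08, adjusted p = 0.0133). This call was lost after scaling (-0.21, adjusted p = 0.0607) and with control 4 and cold 2 left out together (-0.25, adjusted p = 0.0728).

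The one tested member of the uncoupling protein family, slc25a14, which is known for its expression in mammalian brain, rose. It went from 21.9, 19.2, 21.2 and 21.9 TPM in control to 25.7, 30.7, 29.3 and 30.6 TPM in cold libraries. The groups did not overlap and the mean was 38.2% higher (0.45 ± 0.08, limma adjusted p = 0.00214).

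Among 11 genes grouped as carriers of organic acids, amino acids and acylcarnitines, 3 fell (27.3%, beside 23.6% of all genes) and 1 rose (9.09%, beside 13.0%). The basic amino acid carrier gene slc25a29 was at 112, 107, 103 and 107 TPM in control and at 64.4, 74.0, 72.8 and 72.8 TPM in cold libraries. It fell by 33.9%, with cold 1 lowest and no overlap (-0.59 ± 0.06, limma adjusted p = 0.000137). The gene for citrin, slc25a13, an aspartate and glutamate exchanger of the malate-aspartate shuttle, was at 9.77, 9.51, 9.85 and 8.89 TPM in control and at 5.92, 4.79, 6.46 and 5.24 TPM in cold libraries. It fell by 41.1% with groups well apart (-0.68 ± 0.10, adjusted p = 0.000959). The gene for the other aspartate and glutamate exchanger, slc25a12 (aralar), the main form in mammalian brain, was at 43.9 ± 5.20 and 40.2 ± 4.59 TPM and was not called (adjusted p = 0.382).

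The shuttle's oxoglutarate carrier gene, slc25a11, was the most abundant gene of this role. It was at 105, 100.4, 124 and 117 TPM in control and at 119.5, 124, 117 and 117 TPM in cold libraries, which overlapped (0.10 ± 0.07, limma adjusted p = 0.283). The less studied carrier gene slc25a45 was low in all libraries, at 2.69, 2.17, 2.76 and 2.58 TPM in control and at 1.20, 1.55, 1.56 and 1.09 TPM in cold libraries. It fell without overlap (-0.60 ± 0.13, adjusted p = 0.00650). Its counterpart in the other direction was slc25a34, at 4.49, 5.27, 4.94 and 6.04 TPM in control and at 9.37, 7.92, 7.96 and 8.96 TPM in cold libraries. The mean was 65.0% higher, and the log2 change was 0.63 ± 0.10 (adjusted p = 0.00174). On the log2(TPM + 1) scale slc25a34 was the 1 member called higher with a change of at least 1.5-fold, beside 7 called lower. The share of all genes passing this cut was not counted. With no fold cut, more of all genes were called lower (23.6%) than higher (13.0%). The dicarboxylate carrier gene slc25a10, the oxodicarboxylate carrier gene slc25a21, and slc25a35, slc25a47 and slc25a48 were not called. Both slc25a35 and slc25a47 were called when 1 library was left out, the former lying higher without cold 2 (adjusted p = 0.0398) and the latter lower without control 4 (adjusted p = 0.04995).

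Of 10 genes grouped as carriers of cofactors, nucleotides, glutathione and metals, 3 fell (30.0%, beside 23.6% of all genes). The mitoferrin gene slc25a28, an iron importer, was the most abundant of them. It was at 78.8, 70.9, 83.6 and 77.3 TPM in control and at 44.8, 48.9, 51.5 and 55.2 TPM in cold libraries, and so fell by 35.4% with no overlap (-0.62 ± 0.08, limma adjusted p = 0.000412). The others were slc25a53 (6.503 ± 0.720 to 4.48 ± 0.755 TPM, adjusted p = 0.0196) and slc25a16 (10.4 ± 1.40 to 8.32 ± 0.288 TPM, adjusted p = 0.0423). The slc25a53 call was lost without control 1 or control 3 (adjusted p 0.0533 to 0.0553), and that of slc25a16 in every fit with 1 library left out except that without control 3 (adjusted p 0.0638 to 0.0931). By the gene table slc25a16 overlaps tet1, which was not called (11.3 and 10.5 TPM, adjusted p = 0.528).

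The folate carrier gene slc25a32 (13.3 and 16.6 TPM, adjusted p = 0.0589) and the pyrimidine nucleotide carrier gene slc25a33 (48.0 and 53.8 TPM, adjusted p = 0.236) were not called on the TPM scale. Both were called higher after scaling (0.39, adjusted p = 0.0258, and 0.25, adjusted p = 0.0472). The peroxisomal carrier gene slc25a17, the glutathione carrier gene slc25a40, the pyrimidine nucleotide carrier gene slc25a36 and the S-adenosylmethionine carrier gene slc25a26 were not called. Of these, slc25a26 was called lower without cold 4 (adjusted p = 0.0305).

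The orphan carrier gene slc25a43 rose from 4.89, 6.58, 6.16 and 6.35 TPM to 8.02, 8.68, 11.4 and 8.64 TPM, without overlap and by 53.1% in mean TPM (0.54 ± 0.13, limma adjusted p = 0.00982). The outer membrane protein gene slc25a46, linked in humans to optic atrophy and neuropathy, was at 32.5, 24.7, 32.3 and 30.4 TPM in control and at 28.7, 28.1, 27.4 and 30.3 TPM in cold libraries. These overlapped (-0.06 ± 0.09, adjusted p = 0.644). For pyruvate entry, mpc2, a subunit of the mitochondrial pyruvate carrier, was at 89.8, 82.5, 89.1 and 75.4 TPM in control and at 89.3, 75.4, 89.2 and 82.5 TPM in cold libraries (-0.00 ± 0.08, adjusted p = 0.992). Its means of 84.2 and 84.1 TPM were the closest of the set.

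The outer membrane channels were abundant. The vdac1 gene was at 357, 344, 348 and 326 TPM in control and at 360.4, 341, 369 and 357 TPM in cold libraries. Its ranges overlapped and it was not called on the TPM scale (0.05 ± 0.05, limma adjusted p = 0.399), but was after scaling (0.15, adjusted p = 0.0331). The vdac2 gene was at 188, 174, 195 and 189 TPM in control and at 201, 209, 210.0 and 207 TPM in cold libraries. It rose by 10.95% without overlap (0.15 ± 0.05, adjusted p = 0.0362). That call was lost without cold 2, 3 or 4 or control 1, 2 or 4 (adjusted p 0.0611 to 0.0853). The gene table places vdac2 over LOC102075851, called lower (15.8 to 11.7 TPM, adjusted p = 0.0303), and LOC100692637, not called.

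Among 6 genes of the calcium uniporter complex and the LETM group, 2 rose (33.3%, beside 13.0% of all genes) and 1 fell (16.7%, beside 23.6%). Both risers were LETM genes. The cation and proton exchange gene letm1, whose human counterpart lies in the Wolf-Hirschhorn deletion, was at 10.8, 11.6, 13.4 and 13.1 TPM in control and at 15.9, 18.4, 16.3 and 17.8 TPM in cold libraries. It rose by 39.7% without overlap (0.45 ± 0.09, limma adjusted p = 0.00386). Its relative letm2 rose less, from 25.2, 23.0, 24.5 and 24.6 TPM to 27.0, 26.3, 28.5 and 27.9 TPM (0.17 ± 0.06, adjusted p = 0.0452). The letm2 groups did not overlap, but its call was lost in every fit with 1 library left out except that without cold 2 (adjusted p 0.0581 to 0.114).

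The uniporter pore gene mcu fell from 15.4 ± 0.675 to 12.6 ± 1.04 TPM (-0.27 ± 0.08, limma adjusted p = 0.0228). Its call was lost after scaling (-0.17, adjusted p = 0.0842) and without cold 1, cold 2 or control 2 (adjusted p 0.0510 to 0.0631). The inhibitory pore relative mcub (11.6 ± 2.42 and 12.8 ± 1.47 TPM) and the gatekeeper gene micu2 (8.196 and 7.65 TPM) were not called.

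Of the 3 fusion genes 1 fell (33.3%, beside 23.6% of all genes). The outer membrane mitofusin gene mfn1 was at 45.9, 39.4, 45.9 and 40.5 TPM in control and at 33.0, 34.8, 36.5 and 38.8 TPM in cold libraries. All cold libraries were below all control ones (-0.26 ± 0.08, limma adjusted p = 0.0264). The call was lost after scaling (-0.16, adjusted p = 0.107) and without cold 1, cold 2, control 1 or control 3 (adjusted p 0.0565 to 0.0732). The more abundant mfn2, mutated in human Charcot-Marie-Tooth neuropathy, ranged widely, at 57.3, 79.1, 57.6 and 65.9 TPM in control and 73.5, 63.0, 56.6 and 48.4 TPM in cold libraries (-0.11 ± 0.14, adjusted p = 0.584). For opa1 the control libraries were at 49.6, 50.3, 49.4 and 48.8 TPM and the cold ones at 47.2, 46.3, 46.8 and 45.2 TPM. The opa1 groups did not overlap, but the change was small and not called (-0.09 ± 0.04, adjusted p = 0.134).

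The name pattern also took in letmd1, which encodes a LETM1-domain protein outside the exchanger group. It fell from 23.4, 20.2, 21.0 and 19.5 TPM to 16.0, 15.4, 19.2 and 15.5 TPM, with all cold libraries below all control ones (-0.33 ± 0.09, limma adjusted p = 0.0186). The call was lost after scaling (-0.24, adjusted p = 0.0553). The gene table places letmd1 over cd63, which was not called (59.8 and 48.5 TPM, adjusted p = 0.263).

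Related members did not always move together. The ratio of their TPM within each library was therefore compared for 12 pairs by an exact two-sided permutation test. This ratio does not depend on how libraries are scaled. The pairs were chosen after these data had been seen, so the ratios partly restate the calls above and are no separate support for them. For 5 pairs the groups were fully separated, with the smallest p that 4 against 4 libraries allow, 0.0286. Adjusted over the 12 pairs this is 0.0686, so no pair passed an adjusted threshold of 0.05. With the smallest possible p already reached, a lower adjusted value would have needed more pairs fully separated. The ratio of timm8a to timm8b went from 0.232 ± 0.0277 in control to 0.136 ± 0.00969 in cold libraries, a log2 difference of -0.76. That of timm17a to timm17b went from 7.52 ± 0.670 to 12.8 ± 1.82, a log2 difference of 0.76. Aralar to citrin (slc25a12 to slc25a13) went from 4.61 ± 0.443 to 7.21 ± 0.780, a log2 difference of 0.64. In each of these the member of lower TPM was the one called lower.

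For timm10 to timm10b the ratio went from 2.62 to 2.05 and for letm1 to letm2 from 0.504 to 0.625. The other pairs were not fully separated. The ratio of mcu to mcub had a log2 difference of -0.45 (exact permutation p = 0.0571, adjusted 0.114), and that of vdac1 to vdac2 one of -0.10 (p = 0.171, adjusted 0.229). The pairs slc25a34 and slc25a35, slc25a47 and slc25a48, mfn1 and mfn2, and slc25a33 and slc25a36 had adjusted exact p from 0.147 to 0.8286.

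**Figure D4:**
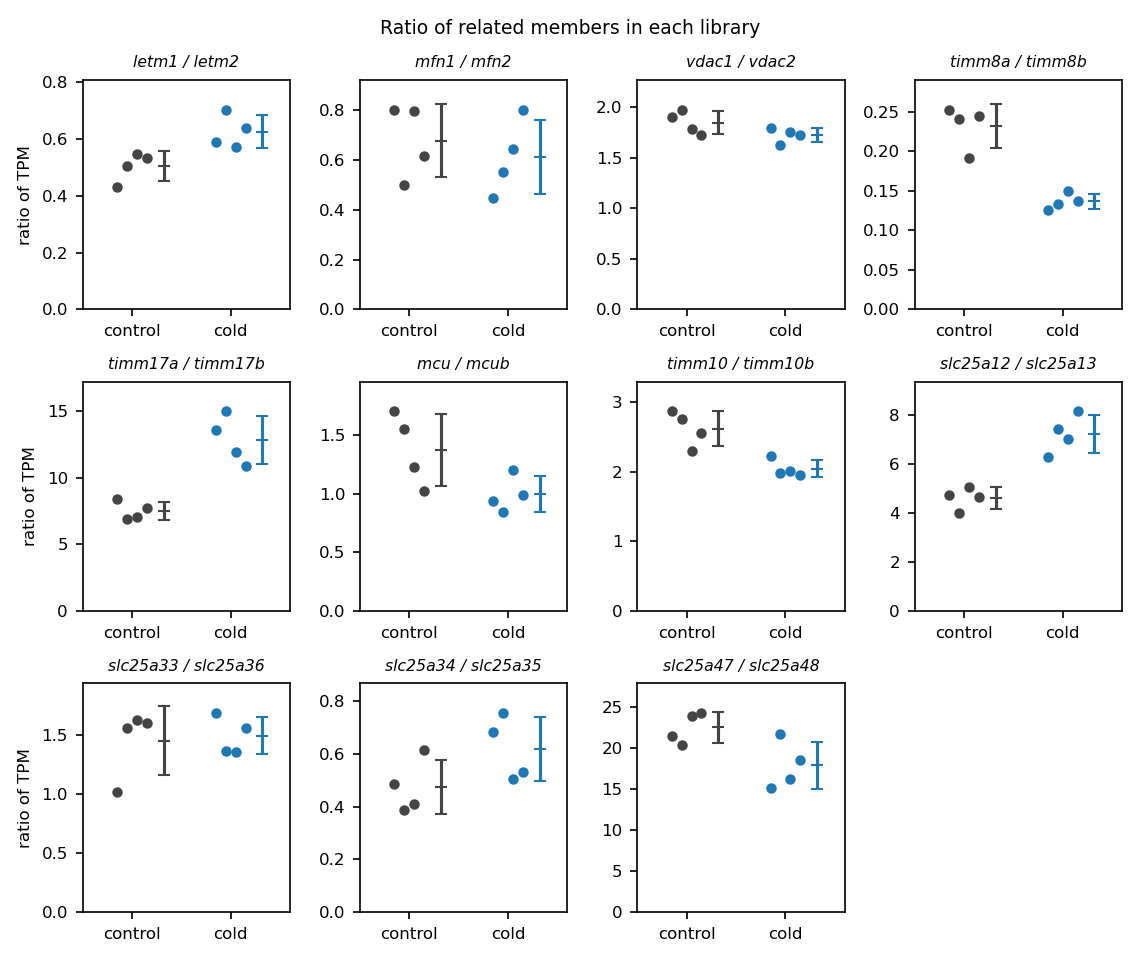
Ratio of the TPM of 2 related members in each control (grey) and cold (blue) library for 11 of the 12 pairs, with mean ± SD (n = 4) and axes starting at 0. The ratio of timm17a to timm17b lies at 6.92 to 8.38 in control and at 10.9 to 15.0 in cold libraries.

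A further 34 genes of these families were listed only under LOC identifiers and are named in the gene table, and 32 of them were tested. They are outside the name rule and are described for comparison. Of the 32, 2 rose (6.25%, beside 13.0% of all genes) and 11 fell (34.4%, beside 23.6%). The called share was 40.6%, beside 41.1% of the members and 36.7% of all genes. After scaling 6 were higher (18.8%, beside 18.5% of all genes) and 6 lower (18.8%, beside 16.8%). The gene for slc25a39, the mitochondrial glutathione importer, was the most abundant one called. It was at 158, 144, 152 and 122 TPM in control and at 80.8, 80.9, 81.4 and 71.2 TPM in cold libraries (-0.86 ± 0.08, limma adjusted p = 0.000142). Its paralogue slc25a40 was among the members not called. The glutamate carrier gene slc25a18 fell from 13.8 ± 2.26 to 6.15 ± 0.699 TPM (-1.04 ± 0.13, adjusted p = 0.000380). Both copies of the citrate carrier gene fell, slc25a1a from 43.4 to 28.3 TPM (adjusted p = 0.00196) and slc25a1b from 25.7 to 15.9 TPM (adjusted p = 0.00429). So did the branched-chain amino acid carrier copy slc25a44b, from 13.0 to 5.47 TPM (-1.13 ± 0.13, adjusted p = 0.000361). Its other copy slc25a44a fell less, from 13.2 to 10.7 TPM (-0.29 ± 0.09, adjusted p = 0.0323). The slc25a44a call was lost after scaling and without cold 1 or 4 or control 1 or 2. In the calcium uniporter role, micu3b fell from 6.17 to 4.28 TPM (adjusted p = 0.00600) and mcur1 from 8.02 to 6.24 TPM (adjusted p = 0.0351). Its copy micu3a was not called (60.2 and 60.3 TPM, adjusted p = 0.950). The mcur1 call was lost after scaling and without cold 1 or 4 or control 2, 3 or 4.

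The largest rise in these families was in slc25a25a, an ATP-Mg/phosphate carrier. It was at 2.14, 2.14, 3.48 and 3.42 TPM in control and at 8.62, 9.76, 10.7 and 12.4 TPM in cold libraries (1.597 ± 0.16, limma adjusted p = 0.000171). Its copy slc25a25b was not called (16.8 and 18.1 TPM, adjusted p = 0.343). Whereas the mitoferrin gene slc25a28 fell, the other mitoferrin gene, slc25a37, rose from 3.29, 4.44, 3.24 and 2.76 TPM to 4.38, 5.90, 6.93 and 9.26 TPM (0.75 ± 0.20, adjusted p = 0.0169). The lowest cold library of slc25a37 lay just below the highest control one. The red blood cell marker alas2 was not called (32.1 and 39.8 TPM, limma adjusted p = 0.696). Like slc25a37, it was highest in control 2 (66.2 TPM) among controls and in cold 4 (85.0 TPM) among cold libraries. Both genes increased from cold 1 through cold 4, whereas the order of the other control libraries differed. Only 3 of 8 listed red blood cell markers were tested. Among the others, slc4a1a was also highest in control 2 (23.2 TPM) and cold 4 (27.0 TPM). In contrast, tal1 had a negative log2 change (-0.41) and was highest in cold 1 (19.8 TPM) among cold libraries. Neither was called (limma adjusted p = 0.657 and 0.0860). The part of red blood cells in the change of slc25a37 was not tested. The TOM pore gene tomm40 was at 27.2 TPM in both groups (adjusted p = 0.996), and samm50, the outer membrane sorting gene, and mpc1 (165 and 182 TPM, adjusted p = 0.0863) were not called on the TPM scale. After scaling mpc1 was called higher (0.23, adjusted p = 0.00843). So were vdac3 (0.28, adjusted p = 0.0243), tomm20a (0.30, adjusted p = 0.0159) and tomm20b (0.14, adjusted p = 0.0311), which were not called on the TPM scale. The pattern's mfng is a Notch pathway gene and no mitochondrial one. It is counted among the 32 genes above and is 1 of the 11 that fell (9.09 to 6.43 TPM, limma adjusted p = 0.0329). That call was lost after scaling and in every fit with 1 library left out except that without cold 3.

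The 5 lists of genes chosen to surround these families were counted in the same fit. Of 24 other import and sorting genes 13 fell (54.2%, beside 23.6% of all genes) and 0 rose by limma, with 1 higher at an unadjusted p under 0.05. After scaling 10 were lower (41.7%, beside 16.8% of all genes) and 2 higher (8.33%, beside 18.5%). The intermediate peptidase gene mipep, which trims imported precursors, fell from 12.9 ± 1.02 to 6.34 ± 0.531 TPM (-0.92 ± 0.09, adjusted p = 0.000116). The matrix chaperonin gene hspd1 (HSP60) fell from 68.3 ± 5.95 to 48.8 ± 1.85 TPM (-0.47 ± 0.07, adjusted p = 0.00103). Of 14 cristae and inner membrane genes 5 fell (35.7%, beside 23.6% of all genes) and 0 rose, with 0 higher at an unadjusted p under 0.05. After scaling 4 were lower (28.6%, beside 16.8% of all genes). The 5 that fell were led by chchd3a, a subunit of the cristae junction complex (13.4 ± 0.844 to 6.29 ± 0.336 TPM, -0.99 ± 0.08, adjusted p = 4.91e-05), and taz, the name used for the cardiolipin remodelling gene (12.2 to 8.04 TPM, adjusted p = 0.00318).

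Of 7 division genes 2 rose (28.6%, beside 13.0% of all genes) and 1 fell (14.3%, beside 23.6%). The fission gene mtfp1 rose from 16.2 ± 1.10 to 26.1 ± 3.73 TPM (0.65 ± 0.10, limma adjusted p = 0.00140), and mief2, a receptor gene for the fission GTPase, fell from 20.7 to 15.9 TPM (adjusted p = 0.00834). Of 9 other mitochondrial calcium genes 2 rose (22.2%, beside 13.0%) and 4 fell (44.4%, beside 23.6%). After scaling 3 were higher (33.3%, beside 18.5% of all genes) and 3 lower (33.3%, beside 16.8%). The Miro GTPase gene rhot2, which ties mitochondria to motors, fell from 22.6 ± 1.29 to 13.5 ± 1.90 TPM (-0.71 ± 0.10, adjusted p = 0.000825), and smdt1, for the uniporter regulator EMRE, from 67.4 to 46.7 TPM (adjusted p = 0.00247). Its more abundant copy smdt1b went the other way, from 262 to 319.7 TPM (adjusted p = 0.0441), a call lost in every fit with 1 library left out except that without cold 2. The other gene of this list that rose, slc8b1, went from 27.5 to 43.2 TPM without overlap (limma adjusted p = 0.00531). Its call held after scaling and in every fit with 1 library left out. Of 15 biogenesis regulators 4 rose (26.7%, beside 13.0% of all genes) and 3 fell (20%, beside 23.6%). The transcription factor gene nrf1, known to act on many nuclear genes for mitochondria, rose from 14.4 ± 0.864 to 29.7 ± 1.75 TPM (0.9986 ± 0.07, adjusted p = 2.86e-05), and the coactivator gene pprc1 from 3.74 ± 1.69 to 11.1 ± 1.23 TPM (1.42 ± 0.23, adjusted p = 0.00163).

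**Figure D5:**
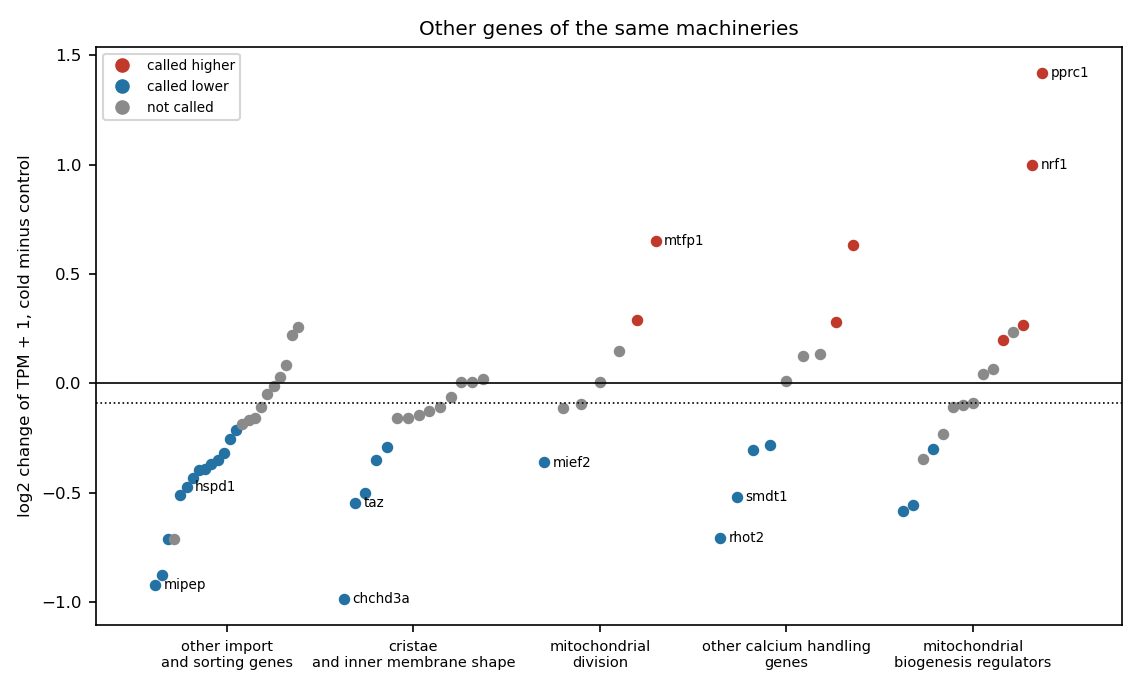
Log2 change of TPM + 1, cold minus control, of each tested gene in 5 lists of related mitochondrial genes, with the 2 called genes of lowest p in each list named and the median of all genes tested as a dotted line. In the import and sorting list 13 of 24 genes are called lower and 0 higher, whereas nrf1 and pprc1 stand highest among the regulators.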

How the data were processed

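The authors deposited 1 list of TPM values per library, for 29533 genes, with no header. Each list summed to 1000000, so absolute depth is unknown, and the number of libraries limits the precision. TRIzol extraction, poly(dT) bead capture and an Illumina TruSeq library kit were used, per the labels' protocols. The submitters' processing notes name HISAT2. The counting program, build, annotation and strand handling are not stated there. Counting may have split or shared reads of near-identical copies and of genes that overlap. By the gene table (assembly O_niloticus_UMD_NMBU, used for names and overlaps only) 43 members were matched and 16 overlap another gene.

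limma 3.58.1 in R 4.3.3, with trend and without robust fitting, compared 4 cold with 4 control libraries on log2(TPM + 1), which understates changes of low genes. Genes with a group mean of at least 1 TPM were tested, after the same fit was tested on simulated data. Errors of means are SD and those of log2 changes are SE. Nothing states that libraries were separate fish, so p-values measure only the spread between libraries. Exact permutation tests used scipy 1.17.1.

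Alternatives were the pseudocount (0.1), the level filter (none, or 5 TPM), median-of-ratios scaling, robust fitting, a replicate block, libraries left out and letmd1 left out. The 12 pairs and the genes under LOC identifiers were added after seeing the data. The members and lists were chosen with earlier results of these data known. Values in every library were given for the 8 called members of lowest p in each direction, the most abundant member of each role and all members of roles of 4 or fewer, with group means for other called members and the 2 called genes of lowest p from each pathway list. Other members and listed genes were named after their values were seen. The description of promoters and proteins that had been planned was not made. 10 marker lists were used. Of the members 2 are counted but their own results are not reported here, nor is 1 of the pairs.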

Additional observations from a re-analysis of the deposited data

Results flagged for a closer look

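Within each group of 4 libraries, each member was checked for 1 library far from the other 3 by Dixon's test. Of 112 groups checked 4 were picked out, where chance picks about 1 in 20. In letmd1, cold 3 was at 19.2 TPM and the other cold libraries at 15.4 to 16.0 TPM. In slc25a29, cold 1 was at 64.4 TPM and the others at 72.8 to 74.0 TPM. In slc25a10, control 1 was at 6.68 TPM and the others at 4.71 to 4.89 TPM. In slc25a36, control 1 was at 46.4 TPM and the others at 29.1 to 31.4 TPM. The calls of letmd1 and slc25a29 held without each of these libraries.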

How the results depend on the processing

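Of the 23 members called, 14 were called in every fit that left out 1 library, and 16 kept their call after median-of-ratios scaling. Leaving out 1 library at a time gave 5 to 8 members higher, 5 without cold 3 or control 2, and 10 to 16 lower. The same fits gave 2010 to 2361 of all genes higher and 3688 to 4124 lower, beside 2455 and 4459 with every library. After scaling, the members' median log2 change was 0.020, with 13 members higher and 8 lower, beside 3499 and 3160 of all genes. The all-gene median moved from -0.09 to -0.00, because this scaling by design brings that median close to 0. Why it lay below 0 on the TPM scale was not tested. With control 4 and cold 2 left out together, members called were 6 higher and 10 lower, and all genes 2061 and 3471. Without a level filter members were 8 and 13, at 5 TPM 9 and 14, with a pseudocount of 0.1 or robust fitting 8 and 15, and without letmd1 8 and 14. All genes were 2344 and 4244 without a filter and 2288 and 3882 at 5 TPM. They were 2455 and 4435 with that pseudocount and 2449 and 4459 with robust fitting. The level filter also sets how many genes are tested. Signs turned only in members that were not called. After scaling the log2 change was 0.096 for mpc2, 0.0040 for opa1, 0.058 for slc25a3, 0.036 for slc25a46, 0.035 for timm13 and 0.046 for timm17a. With 1 library left out it ranged from -0.053 to 0.050 for mpc2, -0.011 to 0.17 for slc25a17 and -0.012 to 0.18 for slc25a48.

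Deviations of libraries with the same replicate number correlated at -0.23 to 0.05. The highest correlation between a control and a cold library was 0.28, for control 4 and cold 2. Such values cannot show whether any libraries were kept or processed together. A replicate block gave 6 members higher and 10 lower, and 2025 and 3617 genes. It ended the calls of letm2, mcu, mfn1, slc25a16, timm10, tomm7 and vdac2. TPM keeps no depth, so low members such as slc25a45 have no counting interval.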
